A study of Mus musculus with 20 samples.

Results

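The transcripts described here are those of 6 genes that hormones acting through cyclic AMP are known to induce: the orphan nuclear receptors Nr4a1, Nr4a2 and Nr4a3, the kinase Sik1, the small GTPase Gem and the transcription factor Crem. Each gene was taken from the probe set annotated to its symbol alone. All 6 had exactly 1 such probe set, so 6 of 15651 tested genes were members. The members were chosen by measured values: differences between windows in the Leydig cell samples, those of Nr4a1, Sik1 and Gem among them, were known. The window levels in those samples are therefore given as a description with no test. Tests are given for Leydig cell samples against total testis and for the windows of total testis. These are other comparisons, but the first averages the same Leydig cell samples over the windows. Since earlier results of these data were known at the choice, full independence of these tests from it cannot be shown.

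The samples were 20 arrays of testes from adult male 129/C57BL6 mice, all of them RiboTag-positive/Cyp17icre-positive. RiboTag adds an HA tag to a ribosomal protein in cells that express Cre, here driven from Cyp17, so that an antibody against HA precipitates polysomes of Leydig cells (IP arrays). All mice had received WIN 18,446, an inhibitor of retinoic acid synthesis, at 100 µg per g for 7 days from day 2 after birth. They then received 200 µg of all-trans retinoic acid at day 9, which synchronizes the tubules, and testes were taken 42 to 50 days after that injection. The synchronized testes fell into 5 windows of stages of the seminiferous cycle, from XII-II/III through II/III-VI and then VI-VIII to VIII-X and lastly X-XII. Each window had 2 IP arrays and 2 arrays of total testis homogenate. There was no group without the drug treatment or without Cre. For 1 total testis array of XII-II/III the source label reads X-II/III, and its title was followed.

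Luteinizing hormone drives Leydig cells through a receptor that raises cyclic AMP and activates protein kinase A, which phosphorylates CREB at cyclic AMP response elements (CREs). NR4A receptors are immediate early transcription factors that bind DNA without a known natural ligand, and Nr4a1 is known to act on promoters of steroidogenic genes in Leydig cells. Sik1 and the ICER forms of Crem are known as brakes on this pathway: Sik1 phosphorylates the CREB coactivators of the CRTC family, and ICER competes with CREB for its sites. In germ cells, activator forms of Crem drive genes of maturing spermatids. Gem is a GTPase of the RGK family that inhibits calcium channels and remodels the cytoskeleton.

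The promoters of the 3 receptors are shown because all of them held the same number of CRE half-sites. That count was in view when they were picked, so the shares of all windows given below are a description and no test. RefSeq sequences (GRCm38.p6, 250 bases before to 50 after a transcript start) are shown for these 3 of the 6 members. They are written 5′ to 3′ on the strand of the gene, with each half-site (CGTCA or its reverse complement TGACG) in capitals.
Nr4a1 (chr15:101266596-101266895, plus strand): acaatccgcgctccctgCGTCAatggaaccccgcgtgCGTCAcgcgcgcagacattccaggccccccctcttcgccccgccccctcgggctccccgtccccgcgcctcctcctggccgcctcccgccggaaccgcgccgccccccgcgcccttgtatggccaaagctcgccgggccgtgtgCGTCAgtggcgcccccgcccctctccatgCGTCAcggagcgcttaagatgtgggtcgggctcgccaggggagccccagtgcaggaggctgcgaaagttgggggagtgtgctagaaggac
Nr4a2 (chr2:57123954-57124253, minus strand): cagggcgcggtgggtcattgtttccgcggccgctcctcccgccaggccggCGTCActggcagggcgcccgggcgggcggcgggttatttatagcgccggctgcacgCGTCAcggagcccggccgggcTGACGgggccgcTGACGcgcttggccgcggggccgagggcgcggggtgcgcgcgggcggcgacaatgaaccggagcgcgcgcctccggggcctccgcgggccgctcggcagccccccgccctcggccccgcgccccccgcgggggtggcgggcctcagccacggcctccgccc
Nr4a3 (chr4:48045055-48045354, plus strand): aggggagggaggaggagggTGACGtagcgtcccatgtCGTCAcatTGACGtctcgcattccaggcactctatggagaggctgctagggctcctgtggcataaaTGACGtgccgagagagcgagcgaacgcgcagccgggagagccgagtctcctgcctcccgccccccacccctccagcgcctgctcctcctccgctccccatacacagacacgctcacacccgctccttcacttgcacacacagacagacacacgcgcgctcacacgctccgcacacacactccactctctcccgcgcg

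Each of the 3 windows held 4 half-sites. Of 32851 promoter windows of 300 bases, 6837 (20.8%) held at least 1 and 76 (0.231%) held at least 4, searching both strands. In Nr4a1 the half-sites began at -233, -213, -69 and -40 relative to the transcript start, all of them reading CGTCA. In Nr4a2 they began at -200, -144, -123 and -111, and in Nr4a3 at -231, -213, -205 and -147. The full palindrome TGACGTCA, in which a CGTCA and a TGACG overlap, was in none of these 3 windows, and 588 (1.79%) of all windows held it. The sites the receptors themselves are known to bind (NBRE, AAAGGTCA or TGACCTTT) were not in these 3 windows either, against 495 (1.51%) of all windows. These are letter matches in short windows and no measure of binding. The windows compared were not matched for base composition. No counts are given for Sik1, Gem or Crem: the promoter set held no window for Sik1 or Gem, and Crem was left out. The 3 receptors were therefore the only members whose windows were looked at, and nothing is said of the members as a group.

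Leydig cell transcripts were enriched in the IP. All 6 tested Leydig cell markers of a list of 8 were higher in IP than in total testis, with a median log2 difference of 2.81. Of 8 spermatocyte markers 8 were lower (median -0.81) and of 11 spermatid markers 9 were lower (median -0.89), so germ cell transcripts were reduced and not absent. Of 9 macrophage markers 7 were lower and 2 higher, of 6 myoid markers 5 and 1, of 7 endothelial markers 2 and 2, and of 7 spermatogonial markers 3 and 2. Of 8 Sertoli cell markers 6 were higher in IP (median 0.35) and 0 lower (0 at an unadjusted p under 0.05, limma). Of all tested genes 50.1% were higher and 26.6% lower in IP, with a median of 0.20. The marker counts hold for the values as deposited and were not repeated under other scalings. The deposited values showed 4 groups of 5 arrays, 1 per fraction and replicate, that looked as if normalized separately, so a level is compared most safely between windows of one such group.

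Nr4a1 stood out by window in IP. The values of replicates 1 and 2 were 1239 and 1780 intensity units in XII-II/III, 4941 and 2378 in II/III-VI, 1780 and 2174 in VI-VIII, 2761 and 1950 in VIII-X, and 8826 and 6674 in X-XII. Both X-XII arrays were above the other 8 IP arrays, and the 2 XII-II/III arrays were the lowest. The replicates differed most in II/III-VI, where replicate 1 was high and replicate 2 was not. X-XII exceeded the mean of the other 4 windows by 1.91 in replicate 1 and 1.70 in replicate 2 on the log2 scale, a mean of 1.81 ± 0.22 (SE, n = 2 arrays per window) or 3.50-fold. From the highest to the lowest window mean the span was 2.37, or 5.17-fold. Of 15651 genes, 1 had a larger X-XII difference in IP than Nr4a1, namely Bhlhe40.

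In total testis Nr4a1 was nearly level. It was 2708 and 2756 in XII-II/III, 2844 and 2834 in II/III-VI, 2947 and 3520 in VI-VIII, 2661 and 3196 in VIII-X, and 2704 and 2776 in X-XII. The X-XII arrays, highest in IP, were among the 5 lowest of total testis. There X-XII and XII-II/III overlapped each other and lay below II/III-VI and VI-VIII. The span of the window means was 0.24 (1.18-fold), and the windows did not pass the F test (limma adjusted p = 1). X-XII was 0.04 and 0.14 below the other windows in the 2 replicates (-0.04 and -0.14), the opposite sign to IP. In bulk homogenate fewer cells of a type and less RNA per cell cannot be told apart.

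**Figure D1:**
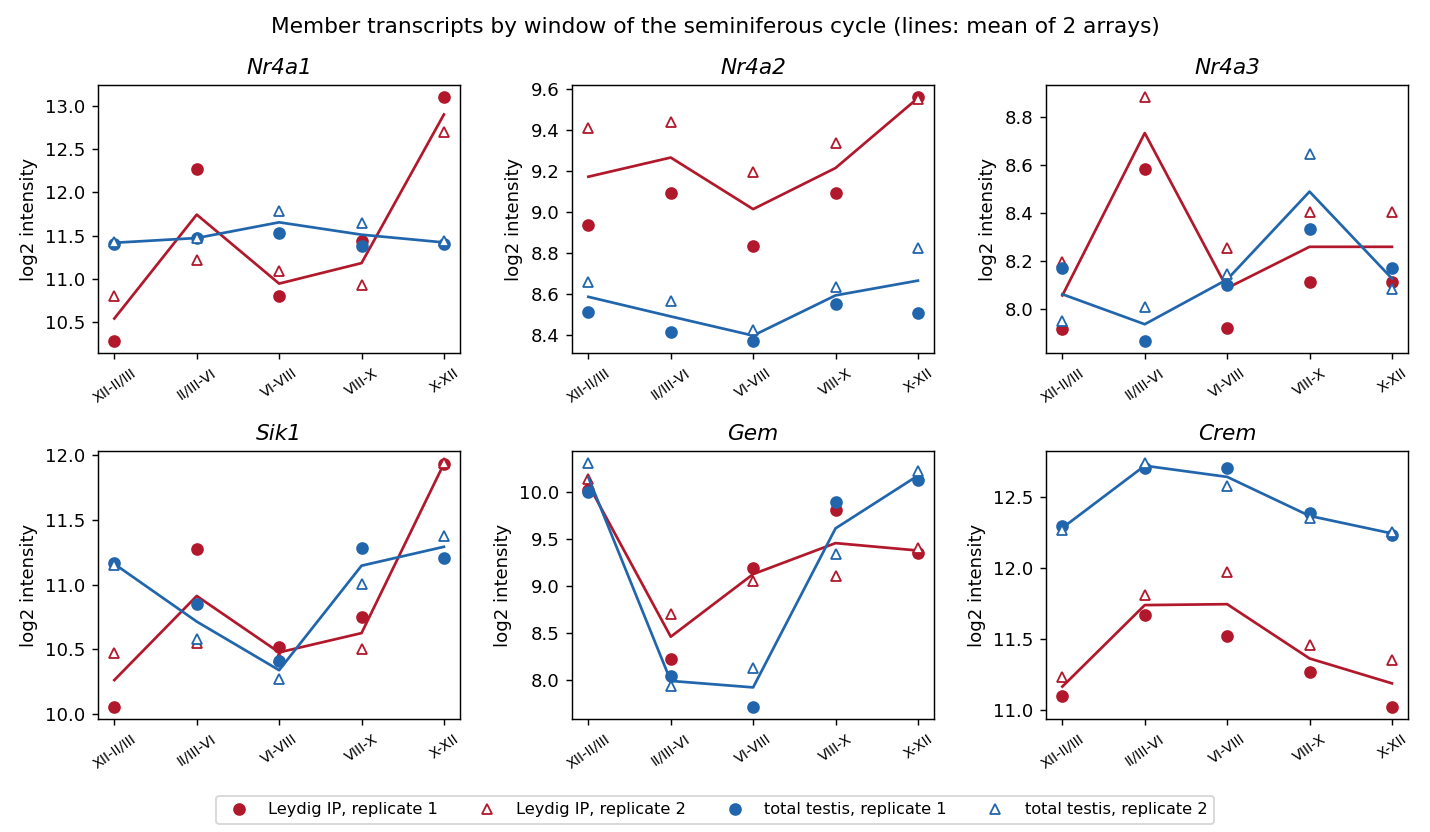
Log2 intensity of the 6 members in the 5 windows, for Leydig IP (red) and total testis (blue), with both replicates as points and the mean of 2 arrays as a line. Nr4a1 and Sik1 were highest in X-XII of IP, Gem swung in both fractions, and all 10 IP arrays of Crem lay below all 10 total arrays.

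Nr4a2, the receptor known for its role in dopamine neurons, had a smaller signal and a smaller window difference. In IP it was 489 and 678 in XII-II/III, 546 and 692 in II/III-VI, 456 and 585 in VI-VIII, 546 and 645 in VIII-X, and 754 and 749 in X-XII. The X-XII arrays were the highest pair, and the other windows overlapped one another. X-XII was 0.57 and 0.21 above the other windows (mean 0.39 ± 0.14), a 1.31-fold difference. In total testis its values ran from 331 to 452 with a median of 370, and the windows did not pass the F test (limma adjusted p = 1).

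Nr4a3, the third receptor, followed another course. Its signal was dim: the mean log2 was 8.28 in IP and 8.15 in total testis, near the filter level of 8.20 (25th percentile of all log2 values). In IP it was 242 and 293 in XII-II/III, 384 and 472 in II/III-VI, 242 and 305 in VI-VIII, and 277 and 339 in both VIII-X and X-XII, which held equal values in each replicate. Its highest window was II/III-VI, by 0.57 in each replicate (mean 0.57 ± 0.14, 1.48-fold), and X-XII lay at -0.02 from the other windows. In total testis II/III-VI had its lowest mean, with 233 and 257, and VIII-X its highest, with 322 and 400.6. The total testis windows did not pass the F test (limma adjusted p = 0.227), but they did with a block for arrays normalized together (0.00981), after quantile normalization (0.0184) and after median centring (0.0133).

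Sik1 had the course most like that of Nr4a1 in IP. It was 1063 and 1418 in XII-II/III, 2475 and 1500 in II/III-VI, 1469 and 1380 in VI-VIII, 1717 and 1452 in VIII-X, and 3899 and 3926 in X-XII. The X-XII pair was again above the other 8 arrays, and replicate 1 of II/III-VI was again above its partner. X-XII exceeded the other windows by 1.28 and 1.45 (mean 1.37 ± 0.16, 2.58-fold), and 6 of all tested genes had a larger X-XII difference.

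Sik1 changed between the windows of total testis. Its total values were 2296 and 2279 in XII-II/III, 1848 and 1526 in II/III-VI, 1358 and 1234 in VI-VIII, 2496 and 2056 in VIII-X, and 2365 and 2658 in X-XII. Both VI-VIII arrays lay below all others, and II/III-VI lay between them and the other 3 windows. The windows differed (limma F test, adjusted p = 0.0104), with a span of 0.95 or 1.94-fold and the highest mean in X-XII, 0.45 ± 0.16 above the others. Of all tested genes 18.4% passed this test, and of the 6 members 2 did, Sik1 and Gem. The Sik1 call was lost without VI-VIII replicate 2 of total testis (adjusted p = 0.0878) and after quantile normalization (0.147).

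Gem had a wide span in both fractions. In total testis it was 1023 and 1262 in XII-II/III, 265 and 245 in II/III-VI, 211 and 281 in VI-VIII, 945 and 646 in VIII-X, and 1114 and 1189 in X-XII. The arrays fell into a low pair of windows, II/III-VI and VI-VIII, and 3 higher windows that did not overlap them. The low arrays (log2 7.72 to 8.13) lay below the filter level of 8.20, so the span is measured against dim values. The span was 2.24 (4.73-fold) and the windows differed (limma F test, adjusted p = 2.71e-06, at most 2.2e-05 with any 1 array left out). Of all tested genes 199 had a larger span in total testis.

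In IP, Gem was 1037 and 1120 in XII-II/III, 300 and 415 in II/III-VI, 585 and 533 in VI-VIII, 893 and 551 in VIII-X, and 650 and 678 in X-XII. XII-II/III was the highest window (0.97 ± 0.18 above the others, 1.96-fold) and II/III-VI the lowest. The 2 windows with the largest gap between the fractions lay on opposite sides of 0. In VI-VIII the IP arrays exceeded their total partners, which were below the filter level, by 1.47 and 0.92. In X-XII the IP arrays lay below their total partners (-0.78 and -0.81). In the other windows the mean difference was between -0.16 and 0.47.

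Crem was the member with the largest difference between the fractions when averaged over the windows. In total testis it was 5026 and 4919 in XII-II/III, 6646 and 6816 in II/III-VI, 6651 and 6109 in VI-VIII, 5334 and 5209 in VIII-X, and 4812 and 4867 in X-XII. In IP it was 2190 and 2405, 3250 and 3587, 2937 and 4003, 2465 and 2810, and 2078 and 2615 in the same windows. In both fractions II/III-VI and VI-VIII were the high windows and the other 3 were lower. The IP peak, VI-VIII, was 0.38 ± 0.12 above the other windows, and this was 0.16 without VI-VIII replicate 2 and 0.60 without replicate 1.

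The total testis windows of Crem spanned 0.48 (1.39-fold) and missed the threshold of the F test (limma adjusted p = 0.0936), but passed with a block for arrays normalized together (0.00156), with the 10 total arrays alone (0.00285), after quantile normalization (0.00141) and after median centring (0.000672). The mean level of spermatocyte markers was high in the same windows, but few of the markers passed. The mean log2 level of the 8 markers in total testis was 12.53 in II/III-VI and 12.56 in VI-VIII, against 12.23 to 12.35 in the other windows, and in IP it was 11.69 and 11.81 against 11.41 to 11.47. In total testis 2 of the 8 passed the F test, Rec8 with a peak in VI-VIII (1.45, limma adjusted p = 3.54e-05) and Sycp1 in II/III-VI (0.52, 0.0416), while Sycp2, Sycp3, Ccna1 and Piwil1 had their highest means in other windows. In VI-VIII of IP the replicates lay further apart: spermatocyte markers were at 11.57 and 12.04, spermatid markers at 11.68 and 12.50, and Crem was higher in replicate 2 too. Their part in the Crem windows was not tested. The Crem probe set is annotated to many transcripts of the gene, so activator forms and ICER were not separated.

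Averaged over the windows, 2 of the 6 members differed between IP and total testis, against 76.7% of all tested genes. Nr4a2 was higher in IP by 0.70 ± 0.08 (SE, n = 10 arrays per fraction, 1.62-fold, limma adjusted p = 5.2e-07), with all 10 IP arrays above all 10 total arrays. Crem was lower by 1.01 (-1.01 ± 0.069, limma adjusted p = 5.84e-10), so total testis was 2.01-fold higher, with all 10 IP arrays below all 10 total arrays. Of all tested genes 50.1% were higher and 26.6% lower in IP, and nothing is read from 1 of 6 in each direction. If the fractions were normalized separately, as the values look, these SEs and p-values are too small. Both calls held in all 6 alternative fits, with Nr4a2 between 0.18 and 0.70 (adjusted p at most 0.00667) and Crem between -1.52 and -1.01 (at most 3.78e-06).

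The other members did not pass this test. Nr4a1 differed by -0.03 ± 0.12 (95% interval -0.29 to 0.23, limma adjusted p = 0.816), Sik1 by -0.09 ± 0.091 (-0.28 to 0.10, adjusted p = 0.383), Gem by 0.13 ± 0.10 (-0.09 to 0.35, adjusted p = 0.263) and Nr4a3 by 0.13 ± 0.078 (-0.03 to 0.30, adjusted p = 0.137). The scaling between the fractions decided these values. The median of all genes was 0.20 as deposited, -0.11 after quantile normalization and -0.31 after median centring. After median centring all of these 4 genes were called lower in IP, Nr4a1 at -0.55, Sik1 at -0.60, Gem at -0.39 and Nr4a3 at -0.38. After quantile normalization Sik1 (-0.43) and Gem (-0.26) were. With Crem, 5 of 6 members were then lower after median centring, against 61.4% of all genes, and 3 of 6 after quantile normalization, against 49.1%.

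**Figure D2:**
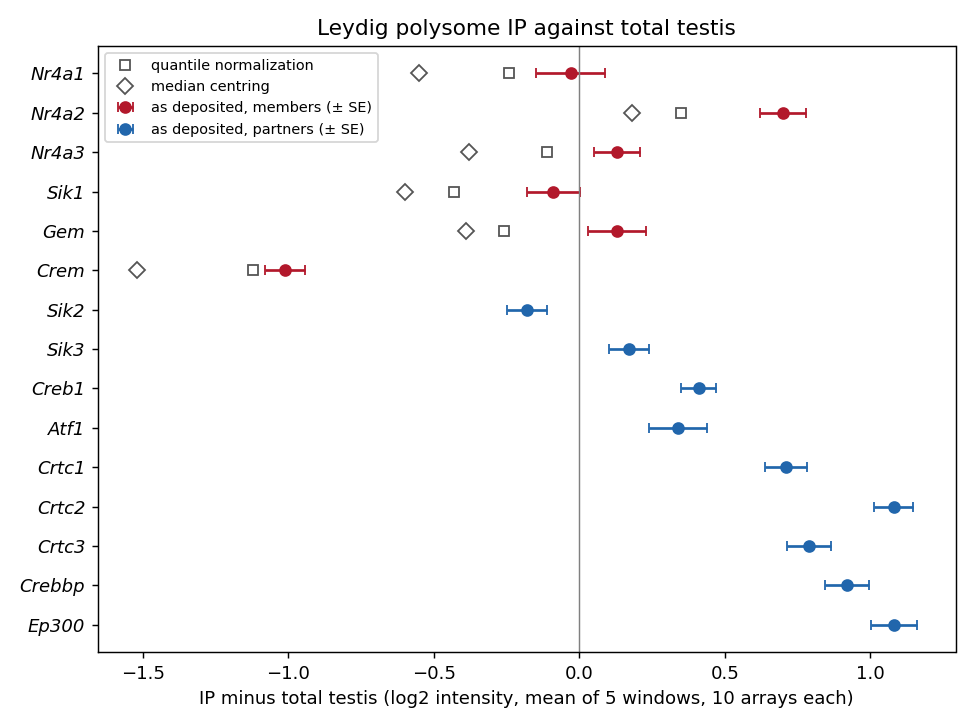
IP minus total testis in log2 intensity, averaged over 5 windows (10 arrays per fraction), for the members (red) and for CREB partners and SIK kinases (blue), with SEs; open symbols give the members after 2 other scalings. Nr4a2 stayed above 0 and Crem below 0 under all 3 scalings, while Gem and Nr4a3 moved from above to below 0.

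The average over windows hid changes with the window. Arrays of the same window and replicate number are taken here as IP and total of one testis. Nr4a1 was 1.71 and 1.27 higher in IP in X-XII and lower in XII-II/III (-1.13 and -0.63) and VI-VIII (-0.73 and -0.70). Sik1 was 0.72 and 0.56 higher in X-XII and lower in XII-II/III (-1.11 and -0.68) and VIII-X (-0.54 and -0.50). For Nr4a2 the difference stayed positive in all 10 pairs, from 0.42 to 1.05, and for Crem negative in all 10, from -1.21 to -0.61. Nr4a3 was 0.72 and 0.88 higher in II/III-VI and near 0 elsewhere, with means from -0.23 to 0.13. These differences contain the IP window levels and were not tested.

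**Figure D3:**
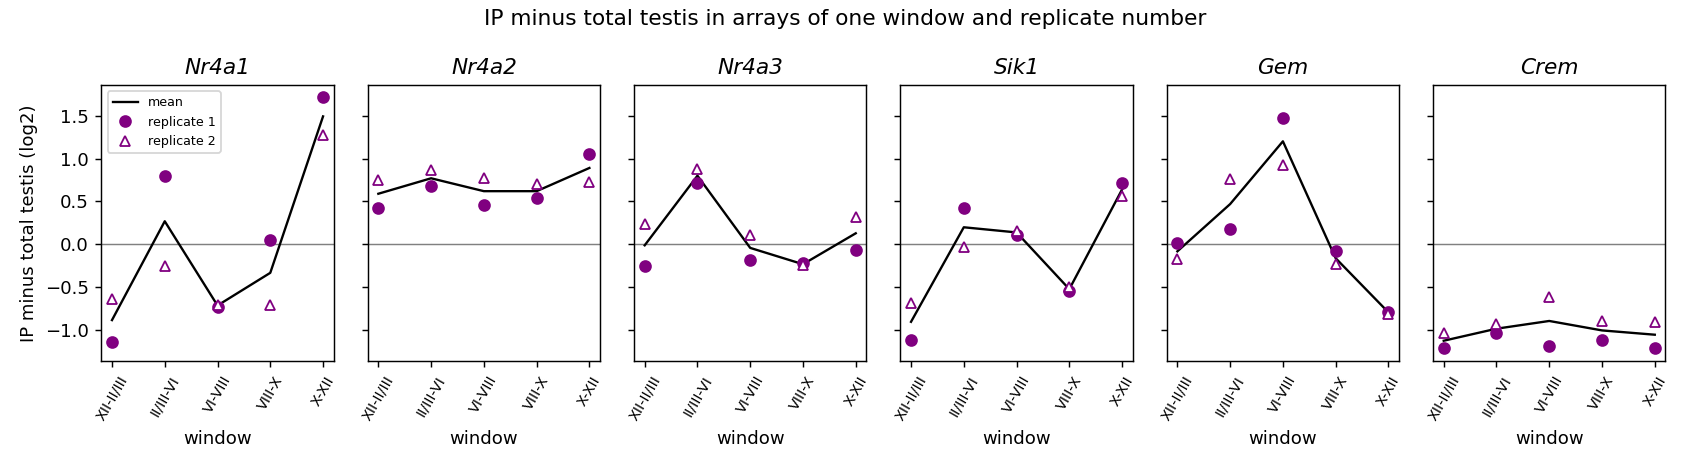
IP minus total testis (log2) for each window and member, with replicates 1 and 2 as circles and triangles and their mean as a line. Nr4a1 ran from -0.88 in XII-II/III to 1.49 in X-XII, Gem from 1.20 in VI-VIII to -0.79 in X-XII, while Nr4a2 and Crem stayed on one side of 0; the zero line depends on the scaling between fractions.

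The 6 genes did not move as one group in IP. After removing each replicate's mean, the values of Nr4a1 and Sik1 correlated at 0.98 over the 10 IP arrays, those of Nr4a1 and Nr4a2 at 0.83, and those of Sik1 and Nr4a2 at 0.81. Nr4a3 correlated with Nr4a1 at 0.39, Crem with Nr4a1 at -0.12, and Gem with Crem at -0.76 and with Nr4a3 at -0.78. These coefficients are descriptions: the arrays share normalization and windows, and with 5 windows 1 window can carry a coefficient.

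Among all 15648 genes compared, the one most like Nr4a1 over the 10 IP arrays was Sik1 (r = 0.981), followed by Sh3bp2 (0.962), which encodes an adaptor protein of signalling complexes, and Rps3a1 (0.955), a ribosomal protein gene. For Sik1 they were Nr4a1, Sh3bp2 (0.967) and Ahdc1 (0.946). In all, 12 and 13 genes exceeded 0.9 with Nr4a1 and Sik1. The windows of Sh3bp2 spanned 0.58, far less than the 2.37 of Nr4a1. Nr4a2 was most like Gdap1l1 (0.956), AA386476 and Fam43a (0.952 each), and Nr4a3 most like Tas2r137 (0.933), Rpp25 (0.930) and Zfp870 (0.924).

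Gem was most like Runx1t1 (0.963), Pmm2 (0.951) and 1110006O24Rik (0.949). Crem was most like Cep41 and Rnf17 (0.988 each) and Tex26 (0.987), and 440 genes exceeded 0.9 with it. Cep41 is a centrosomal protein gene and Rnf17 a germ cell gene known from spermatid differentiation. Their IP minus total testis differences were -1.38, -0.42 and -1.49, against -1.01 for Crem.

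The rest of the cyclic AMP pathway was followed in 7 lists of 76 genes, 65 of them tested. The untested genes included the luteinizing hormone receptor Lhcgr, Gnas and Prkaca. The IP window peaks of 4 tested genes, Bhlhe40, Per1, Egr1 and Btg2, were known when the lists were drawn up, so their IP windows are described with no test. Of the other 61, 7 differed between the IP windows (limma F test, adjusted p under 0.05), or 11.5% against 8.87% of all tested genes. With the 10 IP arrays alone 1 of the 61 was called. Of the 7, 3 were among the other 13 genes of the list of cyclic AMP-induced genes.

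X-XII in particular was tested for these 61 genes against the other 4 windows of IP. Higher there was 1, against 0.46% of all genes, and 0 were lower, against 1.58% (limma; 6 and 2 at an unadjusted p under 0.05). That gene was Cebpb, a bZIP transcription factor, higher by 0.65 ± 0.097 (limma adjusted p = 0.00139), though not called with the 10 IP arrays alone (0.0687). Among the genes with known peaks, Bhlhe40, a clock-linked repressor, was 2.04 ± 0.16 above the other windows in X-XII and the clock gene Per1 0.57 ± 0.12.

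The immediate early gene Egr1, also with a known peak, was highest in II/III-VI (2.00 ± 0.24 above the others), the window where Nr4a3 was highest too, and so was Btg2 (0.75 ± 0.16). Gadd45b (0.68 ± 0.19, limma F test adjusted p = 0.00402) and Rgs2 (0.55 ± 0.17, 0.046), a regulator of G protein signalling, passed the F test with their highest mean in X-XII. Fos, Fosb and Junb, the AP-1 genes of the list, did not pass the F test in IP (adjusted p = 0.631, 0.908 and 0.962).

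Upstream of the induced genes 3 of 28 (10.7%) passed the window test in IP, a share near the 8.87% of all genes. Of 9 tested genes for cyclic AMP production 0 passed the F test in IP (1 at an unadjusted p under 0.05). Of 5 protein kinase A subunits 1 did, Prkar2a, which peaked in VIII-X (0.54 ± 0.14, limma adjusted p = 0.00022). Of 14 phosphodiesterases 2 did, Pde1a in VI-VIII (0.60 ± 0.15) and Pde10a in VIII-X (0.31 ± 0.10). Germ cell markers were high there too: in IP the spermatid markers had their highest mean in VIII-X (12.31, against 11.83 to 12.09) and the spermatocyte markers in VI-VIII (11.81). All 3 genes were lower in IP than in total testis (-0.46, -1.62 and -0.36). The part of germ cell RNA in these peaks was not tested. The cyclic AMP phosphodiesterase Pde4d had its highest mean in X-XII (0.75 ± 0.21) without passing either test (adjusted p = 0.191 for the F test and 0.0943 for X-XII).

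Of 9 CREB family genes, coactivators and SIK kinases, which act with Sik1, 1 (11.1%, against 8.87% of all genes) differed between the IP windows, the coactivator Crtc3, with a peak in VIII-X (0.61 ± 0.13, limma adjusted p = 0.0157). Sertoli cell markers had their highest mean in IP there as well (11.05, against 10.46 to 10.76). So did spermatid markers (12.31, against 11.83 to 12.09) and, by little, spermatogonial markers (10.2, against 9.68 to 10.19). The part of these cells in the Crtc3 peak was not tested. All 9 had an X-XII difference between -0.15 and -0.02, among them Sik2 (-0.15 ± 0.12), Sik3 (-0.02 ± 0.12) and Creb1 (-0.03 ± 0.11), where Sik1 had 1.37. Among 10 tested NR4A partners and Leydig cell targets 0 passed the F test in IP (1 at an unadjusted p under 0.05). Star, a known target of Nr4a1, had 0.25 ± 0.20 in X-XII of IP (adjusted p = 1), and the receptor partner Rxra 0.07 ± 0.18.

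**Figure D4:**
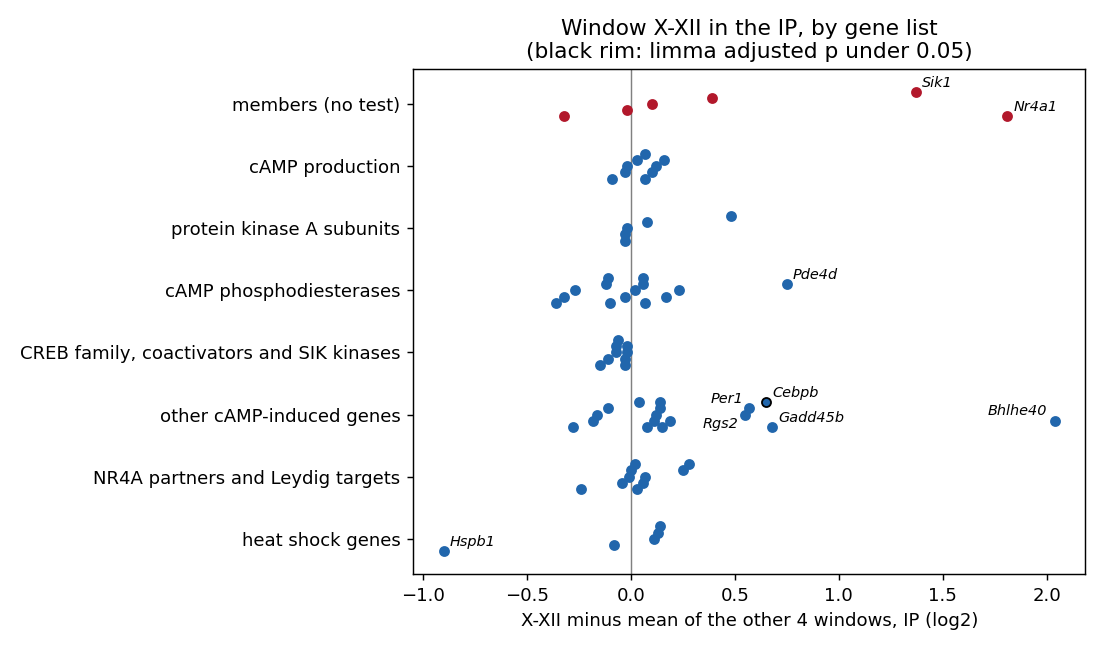
Difference of X-XII from the mean of the other 4 windows in IP (log2) for each tested gene, by list; a black rim marks a limma adjusted p under 0.05, and the members and the 4 genes with known peaks carry no test. Nr4a1 (1.81) and Sik1 (1.37) lie far to the right with Bhlhe40 (2.04), while the 9 CREB family genes, coactivators and SIK kinases lie between -0.15 and -0.02.

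In total testis 12 of the 65 pathway genes differed between windows (limma F test), or 18.5% against 18.4% of all tested genes. With the 10 total arrays alone it was 21 (32.3%), against 30.6% of all genes. Star peaked in X-XII (0.83 ± 0.20, adjusted p = 0.00446) and Scarb1, which takes up lipoprotein cholesterol, in VIII-X (0.59 ± 0.15, 0.0019). Nr0b1 (0.80 ± 0.23) and Rxra (0.61 ± 0.18) peaked in VIII-X, and Pde4a (0.70 ± 0.17) and Crebbp (0.40 ± 0.13) in VI-VIII. Per1 (0.70 ± 0.12), Nfil3 (0.84 ± 0.18) and Gadd45b (0.48 ± 0.19) peaked in VIII-X. Pde10a (0.57 ± 0.10, adjusted p = 1.17e-05) and Prkar2a (0.32 ± 0.14) peaked in X-XII. Sik1 and Gem had their highest means there too, but Sik1 overlapped VIII-X. Gem was about as high in XII-II/III (1.23 above the other windows) as in X-XII (1.25). Crtc3 (0.42 ± 0.13, adjusted p = 0.00138) peaked in VIII-X in total testis as in IP.

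Between the fractions, 40 of the 65 pathway genes were higher and 12 lower in IP, against 50.1% and 26.6% of all genes. After median centring the split was 29 higher and 31 lower, where 28% of all genes were higher and 61.4% lower. After quantile normalization it was 33 and 23, where 35.4% and 49.1% of all genes were. Of the CREB family list 8 of 9 were higher and 1 lower, and 5 and 4 after median centring. Crtc2 (1.08 ± 0.066), Ep300 (1.08 ± 0.079), Crebbp (0.92 ± 0.076), Crtc3 (0.79 ± 0.075) and Crtc1 (0.71 ± 0.073) were called higher under all 3 scalings, and Creb1 (0.41 ± 0.061) as deposited but not after the other scalings (-0.07 and -0.10). Sik2 was lower (-0.18 ± 0.068, limma adjusted p = 0.0252) under all 3, while Sik3 was higher as deposited (0.17 ± 0.068, 0.0337), at 0.01 after quantile normalization and at -0.35 after median centring. The adenylyl cyclases Adcy9 (2.05 ± 0.098), Adcy6 (1.33 ± 0.067) and Adcy3 (1.09 ± 0.094) were higher, and Adcy10, the soluble cyclase known from sperm, was lower (-1.01 ± 0.061), all of them under the 3 scalings.

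Protein kinase A subunits and phosphodiesterases were split. Prkacb (1.98 ± 0.068) and Prkar2b were higher in IP, and Prkar1b (-0.46 ± 0.079) and Prkar2a (-0.46 ± 0.077) lower. Of 14 phosphodiesterases 3 were higher, led by Pde8b (2.08 ± 0.096), which is known to limit steroid output, and 8 lower, led by Pde1a (-1.62 ± 0.083), Pde1c (-0.98 ± 0.056) and Pde3b (-0.95 ± 0.065); the genes named here kept their call under the 3 scalings. Of the 17 other cyclic AMP-induced genes 11 were higher and 0 lower (12 and 0 at an unadjusted p under 0.05, limma). After median centring 7 were higher and 6 lower, where 28% and 61.4% of all genes were. Rgs2 (1.82 ± 0.098), Bhlhe40 (1.53 ± 0.093), Btg2 (1.47 ± 0.091) and Cebpb (1.31 ± 0.055) were at the top and higher under all 3 scalings. All 10 tested NR4A partners and Leydig cell targets were higher under each scaling, with Star at 3.18 ± 0.11. Star, Cyp11a1, Cyp17a1, Hsd3b1 and Nr5a1 were also among the tested Leydig cell markers above, so this count in part repeats their enrichment. Rrad, the 1 tested relative of Gem, was at 0.19 ± 0.076 (limma adjusted p = 0.0348), and at -0.33 after median centring.

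Markers of other cells were set beside X-XII of IP, within each replicate. In replicate 1 the mean log2 level of macrophage markers was 8.47 in X-XII, against 8.48 to 8.56 in the other windows, and that of spermatocyte markers 11.28 against 11.35 to 11.78. The other 6 marker lists and heat shock genes lay inside the range of the other windows there. In replicate 2 Leydig cell markers (13.79 against 13.65 to 13.76) and myoid markers (9.93 against 9.55 to 9.75) were above the other windows. Heat shock genes (10.91 against 11.19 to 11.24), Sertoli cell markers (10.33 against 10.63 to 11.29), spermatid markers (11.76 against 11.84 to 12.50) and endothelial markers (9.07 against 9.08 to 9.14) were below them. No list mean lay on the same side of the other windows in both replicates. The list means hid larger moves of single genes. Of 11 spermatid markers 3 were called lower in X-XII of IP, against 1.58% of all genes. They were Spaca1 (-1.91 ± 0.26), Catsper3 (-1.78 ± 0.26) and Acrv1 (-1.69 ± 0.28, limma adjusted p = 0.000713, 0.00123 and 0.00374). Called higher were 0, but 4 were higher at an unadjusted p under 0.05 (limma), with Tnp1 at 1.32 ± 0.43. The part of the cells of these lists in the X-XII levels was not tested.

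**Figure D5:**
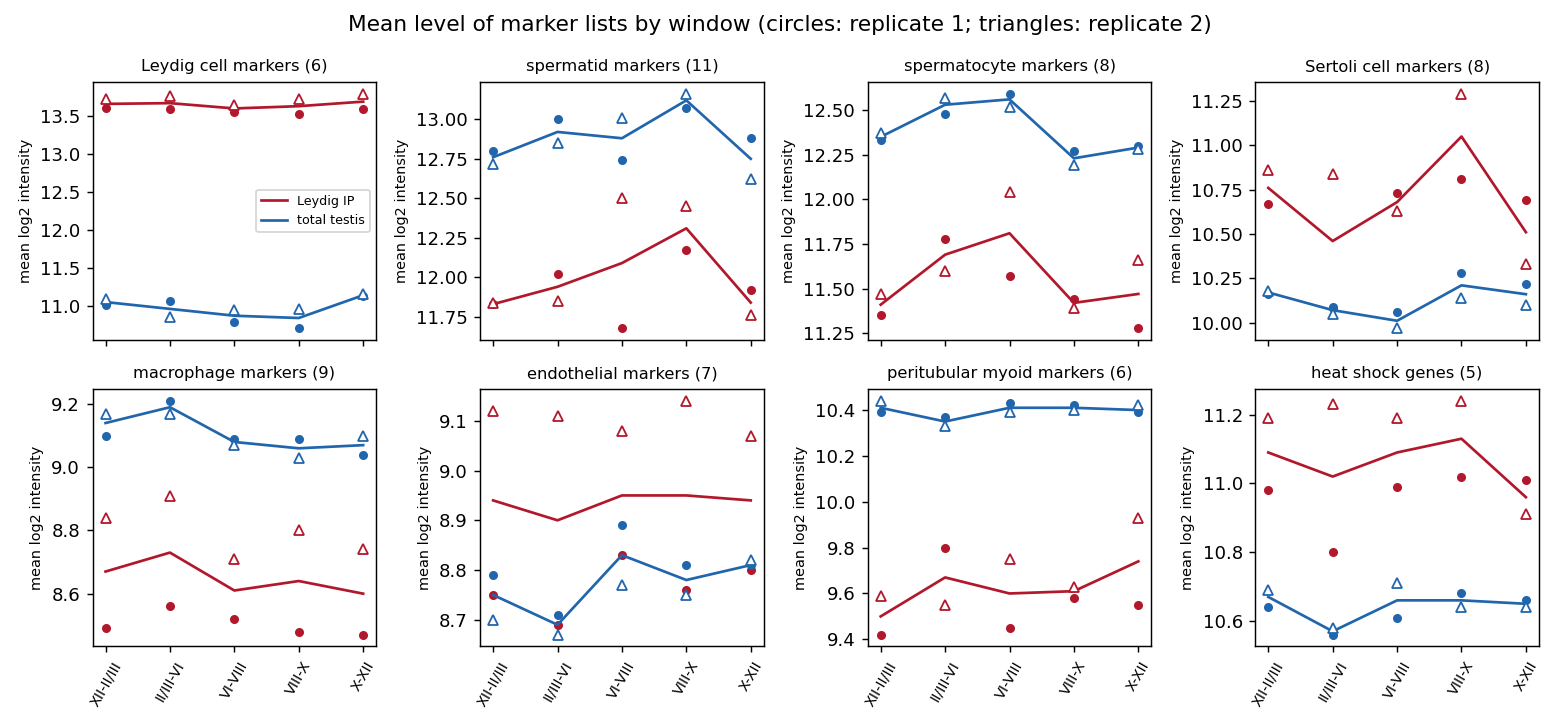
Mean log2 intensity of 7 marker lists and of heat shock genes by window, for Leydig IP (red) and total testis (blue), with replicates as points and their mean as a line; the number of genes is in brackets. The mean of the 8 spermatocyte markers was highest in II/III-VI and VI-VIII in both fractions, though 2 of them passed the F test in total testis.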

How the data were processed

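The authors deposited linear intensities of probe sets, and the submitters' processing notes name RMA; its software and filters are not stated there. The labels' protocols give 1 testis per time point, 50 µl of homogenate for total RNA and 100 ng of RNA per labelling. Nothing says that replicates were separate mice, so p-values measure the spread between these arrays, and 2 arrays per group limit the precision.

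Of 28856 probe sets 21789 had 1 symbol in the platform annotation, and 21698 of these matched RefSeq. The brightest probe set of a gene was kept, as log2 of its deposited intensity. Genes listed in all 20 arrays with a group mean above the 25th percentile (8.20) were tested. Group means of 10 groups were fitted in limma 3.58.1 (R 4.3.3, eBayes, Benjamini-Hochberg over 15651 genes, threshold 0.05, two-sided), tested on simulated data first.

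IP and total arrays of one window and number deviated together (correlations 0.16 to 0.36 in 5 pairs). Arrays of one number in different windows reached 0.55 in IP and 0.67 in total testis (medians 0.23 and 0.04). The check therefore cannot show that a pair shared a testis, and pairing by number is an assumption. Alternatives were quantile normalization, median centring, the mean of a gene's probe sets, no filter, replicate blocks, a random block for the normalization set, 1 fraction alone and each array left out. Members and lists were chosen with earlier results of these data known. Named were the members, up to 4 called genes per list and comparison by size, Sik2, Sik3, Crtc1, Crtc2, Crtc3, Creb1 and Lhcgr, and the 3 genes most like each member. Fos, Fosb, Junb, Pde4d, Rxra and Star in X-XII were named after their values were seen.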

Additional observations from a re-analysis of the deposited data

Results flagged for a closer look

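In its IP peak window, X-XII, Nr4a1 was above the other windows in both IP replicates (1.91 and 1.70, mean 1.81) and below them in both total testis replicates (-0.04 and -0.14). Nr4a3 was above the other windows of IP in II/III-VI in both replicates (0.57 and 0.57, mean 0.57) and below them in total testis (-0.33 and -0.20). In neither case was the difference between the fractions tested, since the IP windows were in view when the genes were chosen.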

How the results depend on the processing

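Windows had 2 arrays each, so smaller window effects could not be resolved. No member call changed without a filter or with the mean of a gene's probe sets, which leaves the values of members with a single probe set as they were. The random block for the normalization set and the replicate block that pairs IP and total arrays were fitted for IP minus total testis only. No member call of that comparison changed with either, and the total testis windows were not refitted with them. After median centring, IP minus total testis was -0.55 for Nr4a1, -0.60 for Sik1, -0.39 for Gem and -0.38 for Nr4a3, all called, the last 2 with the sign turned; after quantile normalization it was -0.43 for Sik1 and -0.26 for Gem, again turned. Genes higher and lower in IP numbered 7839 and 4166 as deposited (65.3% of calls higher), 5547 and 7678 after quantile normalization (41.9%) and 4379 and 9614 after median centring (31.3%); pathway genes lower in IP rose from 12 to 23 and 31. Median centring sets the array medians equal and by construction shifts all genes of an array by the same amount. Quantile normalization sets the array distributions equal and moved genes unequally. With it, IP minus total testis went from 0.55 to 0.58 for Prkar1a and from 0.61 to 0.10 for Rxrb. For the windows of total testis, quantile normalization gave Nr4a3 0.43 and Crem 0.33 (called) and Sik1 0.39 (not called). Median centring gave Nr4a3 0.41 and Crem 0.34 (called). The replicate block for arrays normalized together gave Nr4a3 0.43 and Crem 0.34 (called), and the 10 total arrays alone Crem 0.34 (called). Genes called in total testis were 2885 as deposited, and 4344, 4590, 5747 and 4790 under these 4 settings in that order, with 20, 20, 20 and 21 pathway genes instead of 12. In IP 1388 genes were called, against 2361 and 2172 after the 2 scalings, 3004 with the replicate block and 762 with the 10 IP arrays alone, where 4 pathway genes were called instead of 11, a count that includes the genes with known peaks. Pathway genes higher in X-XII of IP, Bhlhe40 and Per1 included, were 3 as deposited, 5 after quantile normalization and with the replicate block (Prkar2a and Pde4d added) and 1 with the IP arrays alone. Per1 lost its call without X-XII replicate 1 or 2 of IP (adjusted p = 0.0917 and 0.171). The cause of these changes in counts was not tested. Across windows of a fraction, arrays of one number share that number and what looked like one normalization. Their correlations were -0.01 to 0.55 in IP and -0.06 to 0.67 in total testis. The replicate block for arrays normalized together changed no other member call. With single arrays left out, the Sik1 difference in total testis ran from 0.37 to 0.54 and was lost once, that of Crem from 0.32 to 0.35 and was called without VI-VIII replicate 1 or 2 of IP (adjusted p = 0.0351 each). The Crem IP peak ran from 0.16 to 0.60, and the pathway genes higher in X-XII from 2 to 5, the latter without VI-VIII replicate 2 of IP.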
